A study of Mus musculus with 53 samples.

Results

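The 39 protein-coding genes of the mouse Hoxa, Hoxb, Hoxc and Hoxd clusters were examined in bulk RNA-seq of intestinal tissue and tumours. They were taken by name, every protein-coding gene symbol made of Hoxa, Hoxb, Hoxc or Hoxd and a number, and were 39 of 55421 genes in the count table. The 53 libraries fell into 11 groups of mice, all of which carried VilCreER, a tamoxifen-inducible Cre driven by the Villin promoter. Cre was therefore active in intestinal epithelium, while the RNA came from whole tissue or whole tumour, and males and females were induced at 6 to 12 weeks of age.

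WT mice carried VilCreER and no floxed or mutant allele. They gave proximal colon (WT PC, n = 3), small intestine (WT SI, n = 3), small intestine at day 4 after induction (WT SI d4, n = 6) and proximal colon at day 30 (WT PC d30, n = 4). Alk5fl/fl mice, named A, lost the TGFβ receptor ALK5 in epithelium and gave proximal colon at day 30 without treatment (A d30, n = 4) or after sulindac, an anti-inflammatory drug, at 0.4 g/L in drinking water for 14 days (n = 4). BrafV600E/+ Alk5fl/fl mice, named BA, also carried an activated Braf allele. They gave tumours (n = 4), day 30 proximal colon (BA d30, n = 5) and day 30 proximal colon after ampicillin, neomycin trisulphate and metronidazole at 1 g/L each and vancomycin at 500 mg/L in drinking water (BA antibiotics d30, n = 5). Mice with loss of the Wnt-pathway regulator Apc gave small intestine at day 4 (Apcfl/fl, n = 10) and small intestinal tumours (Apcfl/+, n = 5). WT SI and Apcfl/+ tumour mice were on an inbred C57BL6/J background and all other groups on a mixed C57BL/6J one. Replicates are stated to be separate animals.

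Hox genes encode homeodomain transcription factors that give cells a position along the head-to-tail axis. Their order along each chromosome follows the order of their expression domains in the embryo, so that low-numbered genes lie at the anterior end and high-numbered genes at the posterior end. Genes with the same number in different clusters are paralogs. In the gut their expression is known from the mesenchyme, where it patterns the segments of the tube, and from the epithelium, and it persists in the adult.

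In the GRCm38 assembly the Hoxa cluster of 11 genes spanned chr6:52155590-52260880 on the minus strand. Hoxb, with 10 genes, lay at chr11:96194316-96368256, Hoxc, with 9, at chr15:102921103-103036852, and Hoxd, with 9, at chr2:74668310-74765142, all on the plus strand. Neighbouring Hox genes overlap in places and the library kit does not mark strand. Values of Hoxd3, Hoxb3 and Hoxd4, with 62.8%, 52.9% and 52.3% of their exonic bases shared with another gene, are therefore uncertain, and so, less widely, are those of Hoxa11 (35%), Hoxb2 (27.3%), Hoxa3 (27.1%), Hoxa7 (20.4%), Hoxa4 (16.0%) and Hoxa2 (15%). Hoxa5, Hoxa6, Hoxa10, Hoxa13, Hoxb4, Hoxb6, Hoxb7, Hoxb8, Hoxb9, Hoxc4, Hoxc6, Hoxc8, Hoxd8 and Hoxd9 shared none.

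Promoters of 4 members that changed together with their neighbours in Apcfl/+ tumours are shown, read from RefSeq (GRCm38.p6) as 250 bases before to 50 bases after an annotated start. Hoxa5 (chr6:52204538-52204837), Hoxa7 (chr6:52218524-52218823) and Hoxa9 (chr6:52227321-52227620) are on the minus strand and rose in those tumours, whereas Hoxb4 (chr11:96318017-96318316) is on the plus strand and fell. Capitals mark TTTAT, the core of the Caudal factor motif, searched on both strands.
Hoxa5: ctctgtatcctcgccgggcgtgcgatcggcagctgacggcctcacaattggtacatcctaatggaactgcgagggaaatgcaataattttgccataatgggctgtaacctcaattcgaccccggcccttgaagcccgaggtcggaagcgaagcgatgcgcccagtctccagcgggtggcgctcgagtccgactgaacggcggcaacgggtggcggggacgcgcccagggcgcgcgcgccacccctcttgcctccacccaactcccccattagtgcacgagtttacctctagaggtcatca
Hoxa7: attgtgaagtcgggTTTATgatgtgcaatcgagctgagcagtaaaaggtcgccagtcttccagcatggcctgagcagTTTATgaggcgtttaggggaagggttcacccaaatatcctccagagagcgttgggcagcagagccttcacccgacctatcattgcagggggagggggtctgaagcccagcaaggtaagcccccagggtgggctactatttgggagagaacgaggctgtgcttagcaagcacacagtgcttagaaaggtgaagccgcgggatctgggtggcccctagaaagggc
Hoxa9: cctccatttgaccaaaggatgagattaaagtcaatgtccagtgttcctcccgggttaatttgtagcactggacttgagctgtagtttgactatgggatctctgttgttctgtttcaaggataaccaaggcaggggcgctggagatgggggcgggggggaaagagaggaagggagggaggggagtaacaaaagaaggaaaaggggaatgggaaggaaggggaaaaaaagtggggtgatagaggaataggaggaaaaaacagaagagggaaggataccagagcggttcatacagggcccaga
Hoxb4: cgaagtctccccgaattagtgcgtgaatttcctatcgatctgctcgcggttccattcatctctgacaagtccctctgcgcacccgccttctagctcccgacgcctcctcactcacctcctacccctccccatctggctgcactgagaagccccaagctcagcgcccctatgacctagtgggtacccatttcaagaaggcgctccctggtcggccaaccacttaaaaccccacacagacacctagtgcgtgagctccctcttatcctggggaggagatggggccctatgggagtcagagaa
TTTAT stood at -236 and -173 from the Hoxa7 start, and none was in the other 3 windows. The motifs TGATTNAT, bound by Hox with Pbx proteins, and CTTTGAT, bound by TCF and LEF factors, were searched likewise, are held by 3.22% and 3.73% of all windows and were in none of the 4. TTTAT was present in 40% of all 32851 promoter windows and in 37.5% of the 24 windows that matched 22 of the 39 members. GC content was 61.7% for Hoxa5, 55.7% for Hoxa7, 49.7% for Hoxa9 and 58.0% for Hoxb4, against a median of 52.7% over all windows, and they held 29, 9, 4 and 14 CpG dinucleotides. The Hoxa7 and Hoxa9 windows lie inside the gene spans that the counting annotation gives, so other starts of these genes exist.

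Library totals ranged from 516985 to 32824795 reads in genes, so that 3 reads, taken as the floor of detection in a library, stood for 0.142 to 0.184 CPM at the median depth of the groups (CPM being counts scaled to a common library size). The shallowest library was Apcfl/fl replicate 1. Apcfl/+ tumour 2 went against its tissue label, with a summed level of small intestinal markers of 209 CPM against 7932 to 13829 in the other 4 tumours, 0.475 CPM of the small intestinal factor Gata4 against 72.2 to 88.6, and 171 CPM of the colonic Car1 against 0.0709 to 0.603. Its summed colonic markers, 312 CPM, were above the 75.8 to 93.6 CPM of the other 4 tumours and the 198 to 210.5 CPM of WT SI and far below the 12790 to 24861 CPM of WT PC. BA tumour 2 had 2594 CPM of small intestinal markers against 523 to 729 in the others, and 14.2 CPM of Gata4 against at most 0.122. WT SI d4 libraries 1 to 3 held 19.1 to 33.3 CPM of the duodenal factor Pdx1 and libraries 4 to 6 held 0.837 to 0.887. A d30 libraries 1 and 3 held more of the ileal gene Fabp6 (466 and 83.3 CPM, against 0.69 and 1.31), and BA antibiotics library 3 held 8013 CPM of fibroblast markers against 1143 to 1626. Calls that changed without these libraries are given with the results.

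The levels of Hox genes separated small intestine from colon (heatmap of all 39 genes). In WT PC 28 members exceeded 3 counts in every library, and in WT SI 16 did. Hoxb1, Hoxc12 and Hoxc13 never exceeded 3 counts in any library. Summed over the 39 genes, expression per length was 9.90 ± 0.63 CPM per kb of exon in WT SI (SD, n = 3) and 87.7 ± 8.7 in WT PC (n = 3). WT SI d4 summed to 16.6 ± 3.8 (n = 6) and WT PC d30 to 159 ± 7.4 (n = 4). No library of either small intestinal group reached the lowest of its colonic counterpart.

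**Figure D1:**
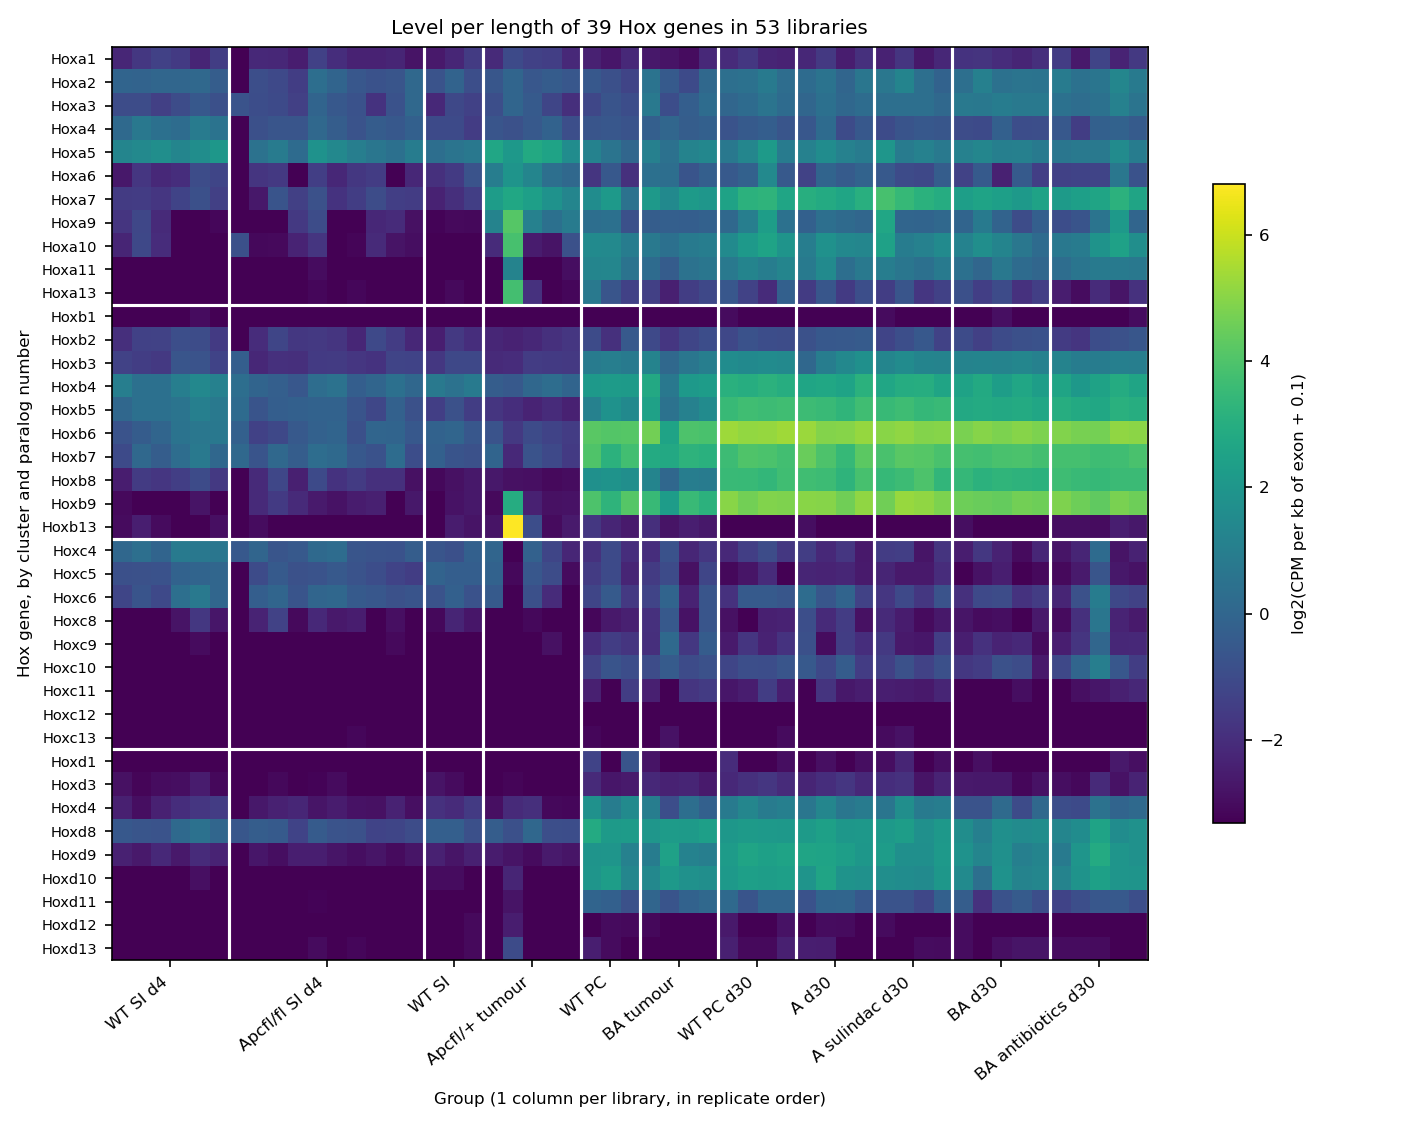
Expression of the 39 Hox genes (rows, ordered by cluster and number) in the 53 libraries (columns, ordered by group), as log2 of CPM per kb of exon plus 0.1. High-numbered genes are at or near 0 in small intestinal libraries and present in colonic ones, and Apcfl/+ tumour 2 stands apart from the other 4 tumours of its group.

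High-numbered genes held a small share of Hox expression in small intestine. Genes numbered 9 to 13 made up 1.98 ± 0.59% of summed Hox expression per length in WT SI and 33 ± 0.47% in WT PC (n = 3 each). In the second set these shares were 2.46 ± 2.1% in WT SI d4 (n = 6) and 31.1 ± 1.2% in WT PC d30 (n = 4). The order of levels per length was led by Hoxb4 (mean 1.53 CPM per kb), Hoxa5 (1.37) and Hoxb6 (0.754) in WT SI, and by Hoxa5 (2.92), Hoxb4 (1.81) and Hoxb5 (1.41) in WT SI d4. In the colon the order was Hoxb6, Hoxb9, Hoxb7, with means of 17.6, 14.2 and 12.8 CPM per kb in WT PC and 38.4, 28.8 and 14.3 in WT PC d30, and these 3 genes led in the same order in BA tumours and in every other day 30 group.

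The first comparison asked which members differ between proximal colon and small intestine, and it was made on separate sets of WT mice. In WT PC against WT SI, 26 members had enough reads to be tested, of which 18 were higher in colon, 2 were lower and 6 did not pass (edgeR quasi-likelihood test, Benjamini-Hochberg adjusted p under 0.05). These 20 were 76.9% of those tested, beside 57.5% of all genes (29.9% for higher calls alone), and the median log2 fold change was 3.92 against 0.05 for all genes. With genes that had no reads in WT SI held at their lower bounds, the median was 3.44. In WT PC d30 against WT SI d4, 21 of 27 were higher and 3 lower, 88.9% beside 51.8% of all genes (27% for higher calls), with a median of 3.13 (2.96 at the bounds) against 0.01. Members whose libraries did not overlap numbered 21 in the former, where 65.6% of all genes did not overlap, and 24 in the latter, where 40.3% did not. Tissue was mixed with genetic background in the former and with days after induction in the latter, and these cannot be told apart within either. Hoxa9, Hoxa10, Hoxa11, Hoxa13, Hoxb8, Hoxb9, Hoxc10, Hoxd10 and Hoxd11 had at most 3 reads in any WT SI library. The same held in WT SI d4 for Hoxa11, Hoxb9, Hoxc10, Hoxd10 and Hoxd11. The filter on low counts let them in through colon, so their higher calls were fixed. Other members with few small intestinal reads also entered through colon alone, and their higher calls were favoured. Among them were Hoxd9 (10 reads in WT SI and 22 in WT SI d4) and, in the second set, Hoxa6 (19 reads) and Hoxd3 (14 reads). The shares, medians and non-overlap counts of both sets include them and do not measure an excess over all genes.

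Most tested genes numbered 9 to 13 had at most 3 reads in any WT SI library, so that they passed the filter on low counts through colon and had to differ. They are described by their values. Hoxb9, a gene of trunk patterning, stood at 0, 0.101 and 0.146 CPM in the WT SI libraries and at 40.3, 24.7 and 45 CPM in WT PC. At day 4 it ranged in WT SI from 0 to 0.118 CPM (median 0, n = 6), from 3 reads in all, and at day 30 the WT PC libraries held 82.3, 64.1, 76.4 and 74.1 CPM. The tissues were far apart in both sets, with fitted log2 fold changes of 8.70 ± 0.50 (SE) and 11.07 ± 0.30. No test result is given for Hoxb9, since its outcome was fixed by the filter. These rested on 5 and 3 small intestinal reads and ran from 8.11 to 9.34 and from 10.77 to 12.02 with 1 library left out. For the second set the ratio of reads was 2670 with a 95% counting interval of 912 to 12900. Hoxa10, which patterns the lumbar region and the reproductive tract, had no reads in WT SI and 9.21, 8.68 and 5.86 CPM in WT PC. This was at least 54.1-fold higher in colon against the floor of 3 counts. In the second set it was 0 to 1.19 CPM in WT SI d4 (median 0.174), with all its reads in libraries 1 to 3, and 9.06, 14.1, 19 and 12 CPM in WT PC d30.

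Hoxa11, Hoxd10 and Hoxd11, known from limb and kidney development, were almost absent from small intestine. Hoxa11 had no reads in any of the 9 WT small intestinal libraries, against 5.28, 5.46 and 3.05 CPM in WT PC and 3.69, 5.18, 4.22 and 5.4 CPM in WT PC d30, which was at least 31.4-fold and 27.5-fold higher. Hoxd11 was likewise at 0 reads in small intestine and at 3.62, 3.22 and 1.95 CPM in WT PC and 4.27, 2.2, 3.69 and 3.74 CPM in WT PC d30, at least 20-fold and 20.7-fold higher. Hoxd10 was at 0.0471, 0.0506 and 0 CPM in WT SI, from 2 reads in all, and at 6.98, 8.91 and 4.43 CPM in WT PC, a ratio of 206 with a 95% counting interval of 56.6 to 1700. In the second set it was 0 to 0.0591 CPM (median 0) in WT SI d4 and 7.74, 9.31, 8.76 and 9.31 CPM in WT PC d30. None of these genes had small intestinal and colonic libraries that overlapped. Hoxc10, which had no small intestinal reads either, reached 0.576, 0.978 and 0.81 CPM in WT PC and 0.632, 0.837, 0.805 and 1.02 CPM in WT PC d30, at least 5.38-fold and 4.9-fold higher. These intervals and floors cover counting error only.

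The middle genes of the Hoxb cluster were present in both tissues and higher in colon. Hoxb6, the member with the highest level per length in colon, was at 1.6, 1.72 and 1.12 CPM in WT SI and at 36, 33.4 and 34.2 CPM in WT PC. In the second set it was 0.993 to 3.09 CPM (median 2.2) in WT SI d4 and 78.5, 69.8, 72.6 and 80.7 CPM in WT PC d30. Its log2 fold changes were 4.52 ± 0.20 (adjusted p = 7e-06) and 5.16 ± 0.28 (adjusted p = 2.4e-08, edgeR), with no overlap. Hoxb7 followed, with 1.18, 0.81 and 0.732 CPM against 24.8, 13.9 and 20.7 CPM, and then 0.596 to 2.48 CPM (median 1.49) against 19.1, 24.6, 23.7 and 20.8 CPM. By cluster, 7 of 8 tested Hoxb genes were higher in each set, as were 5 of 5 and then 6 of 6 Hoxd genes and 5 of 9 and then 7 of 9 Hoxa genes. These counts include the genes of each cluster whose calls were fixed by the filter. Hoxb2, active in hindbrain patterning, was the Hoxb gene that did not pass, with log2 fold changes of 1.37 (adjusted p = 0.0586) and 0.45 (adjusted p = 0.187).

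The Hoxc cluster went the other way in its anterior genes. Hoxc4 was at 1.37, 1.16 and 1.95 CPM in WT SI and 0.44, 0.978 and 0.381 CPM in WT PC, a log2 fold change of -1.37 ± 0.43 (adjusted p = 0.0261) that did not pass without WT PC 1 or 3 or WT SI 1 or 3. In the second set it was 2.18 to 4.31 CPM (median 3.43) against 0.316, 0.68, 1.04 and 0.535 CPM. Hoxc5 was at 2.54, 2.23 and 2.19 CPM against 0.745, 1.21 and 0.334 CPM, and then at 1.39 to 2.79 CPM (median 2) against 0.0527, 0.157, 0.426 and 0 CPM. Both genes were lower in colon in both sets, with log2 fold changes of -2.33 for Hoxc4 and -3.58 for Hoxc5 in the second, and neither overlapped. Hoxc6, their neighbour, was not called in either set (-0.61 and -0.71). Hoxa5, a regulator of lung and gut mesenchyme, did not pass either: it was at 2.17, 2.63 and 2.93 CPM in WT SI and 4.03, 2.65 and 1.72 CPM in WT PC, and its log2 fold changes were 0.11 (adjusted p = 0.8) and -0.19 (adjusted p = 0.631).

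**Figure D2:**
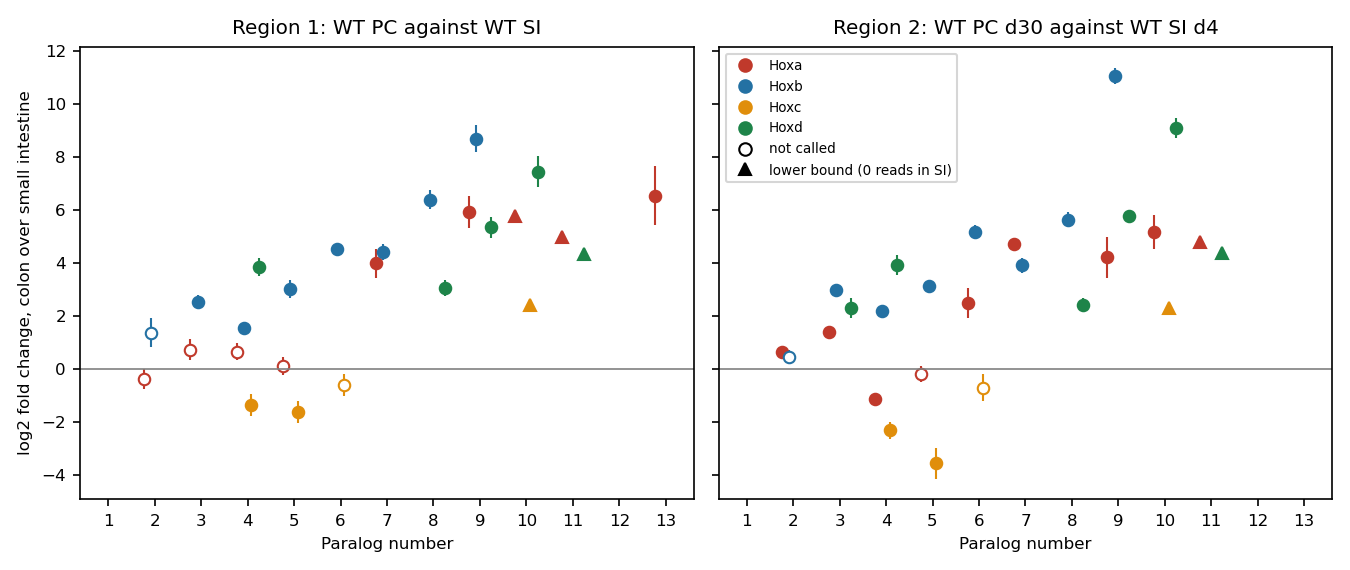
Log2 fold change of colon over small intestine (y axis, ± SE) against the number in the gene's name (x axis), in WT PC against WT SI (panel Region 1) and in WT PC d30 against WT SI d4 (panel Region 2). Filled points passed the test and triangles are lower bounds for genes with no reads in small intestine. The points below 0 that passed are Hoxc4 and Hoxc5 in both panels and Hoxa4 in the second.

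Genes numbered 1 to 8 moved both ways. In WT PC against WT SI the median log2 fold change was 1.05 for the 4 tested genes numbered 1 to 3, of which 1 was higher, and 3.03 for 13 numbered 4 to 8, of which 8 were higher and 2 lower. In the second set the medians were 1.40 (4 of 5 higher) and 2.45 (9 higher and 3 lower of 14). Of members called, 17 were higher in both sets, 2 were lower in both and none went opposite ways, and the sets share no library. The 17 include genes whose calls were fixed by the filter. Without WT SI d4 libraries 1 to 3, 22 of the 24 calls in the second set were kept, Hoxa2 and Hoxa6 were lost, and Hoxa13 and Hoxc6 were gained.

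The sets differed in 6 genes called in 1 of them. Hoxa2 was at 0.895, 1.47 and 0.78 CPM against 1.05, 0.805 and 0.572 CPM in the first set and 1.25 to 1.71 CPM (median 1.57) against 2.16, 2.25, 3.03 and 2.03 CPM in the second, where it rose (0.62 ± 0.17, adjusted p = 0.00989). Hoxa4 was at 0.612, 0.607 and 0.39 CPM against 0.847, 0.92 and 0.81 CPM first, and then at 1.59 to 2.78 CPM (median 2.05) against 0.79, 0.994, 1.14 and 0.856 CPM, where it fell (-1.15 ± 0.22, adjusted p = 0.000946). For these 2 genes the difference between the sets passed the test itself, at -0.99 ± 0.36 for Hoxa2 (adjusted p = 0.0482) and 1.80 ± 0.36 for Hoxa4 (adjusted p = 0.00186). They were 6.9% of 29 members tested for a difference, beside 29.5% of all genes, of which 3970 of 6375 were higher with TMM scaling and 2946 of 6101 with RLE scaling. The difference for Hoxa2 was lost when any single WT SI d4 or WT PC d30 library, or any of 4 in the first set (WT PC 2 or 3, WT SI 1 or 2), was left out, and that for Hoxa4 held. With WT SI d4 libraries 1 to 3 left out together, Hoxa2 was lost and Hoxd8 gained. Hoxa3 (2.1, 3.16 and 2.53 CPM in WT PC against 0.754, 2.13 and 1.76 CPM in WT SI) was called in the second set alone, where WT SI d4 libraries held 1.65 to 3.55 CPM (median 2.46) and WT PC d30 libraries 5.53, 6.38, 8.43 and 6.42 CPM. The same was so of Hoxa6, at 0.0497 to 0.355 CPM (median 0.153) against 0.527, 0.68, 2.32 and 0.535 CPM, and of Hoxd3, at 0.0441 to 0.296 CPM (median 0.118) against 0.527, 0.68, 0.853 and 0.588 CPM. In the first set Hoxa6 and Hoxd3 had too few reads to be tested. In the second they passed the filter on low counts through colon alone, so their higher calls there were favoured by it. Hoxa13, which marks the hindgut, was called in the first set only, at 0, 0.0506 and 0 CPM in WT SI and 4.03, 1.32 and 0.715 CPM in WT PC, and was untested in the second, where its WT PC d30 libraries held 1.42, 0.733, 0.332 and 1.87 CPM and WT SI d4 none. The difference between the sets did not pass for Hoxa3, Hoxa6, Hoxa13 or Hoxd3.

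Smooth muscle moved with these contrasts. Of 10 smooth muscle markers, 9 were higher in WT PC than in WT SI and 10 in WT PC d30 than in WT SI d4, with summed levels of 2550 to 9876 CPM against 900 to 1640 CPM and 5844 to 6800 CPM against 713 to 2228 CPM. With the mean of these markers added to the model, 17 of the 20 called members stayed called in the first set and 8 of the 24 in the second, where Hoxc6 was gained. Over all genes, the calls went from 11399 to 2736 and from 9326 to 2535. The marker sums did not overlap between the tissues, so this term cannot be separated from the tissue. In bulk tissue, fewer cells of a type and less RNA per cell cannot be told apart. Among regulators named as background, Cdx1 and Cdx2, Caudal factors that activate Hox genes, were higher in colon in both sets (log2 2.22 and 2.20, then 0.92 and 0.66). The PBC and MEIS cofactors, which bind DNA with Hox proteins, had 3 of 9 higher and 1 lower in the first set and 5 higher and 2 lower in the second. Meis3 (2.08 and 1.53) was higher and Pbx4 (-1.81 and -2.56) lower in both. Of the long noncoding genes within the clusters, 5 of 7 tested were higher in WT PC, among them Hoxa11os (7.19), Hoxb5os (4.43) and Hoxaas3 (3.97), and none was lower. Of all genes 29.9% were higher. In WT SI 9 of the 10 noncoding genes, the named ones included, stayed under 1 CPM in every library. The filter on low counts therefore favoured higher calls among them.

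BA tumours were then set against WT PC, the tissue in which they arise. None of 29 tested members passed (0 of 29, beside 13.2% of all genes, 7.46% higher and 5.71% lower), 7 had an unadjusted p under 0.05, and DESeq2 called 3 (Hoxb8, Hoxc8 and Hoxd4). The median log2 fold change was -0.03, against 0.03 for all genes. The summed expression per length was 88.2, 51.9, 73.2 and 73.6 CPM per kb in the 4 tumours, the lowest of them in tumour 2, and 97.8, 82.4 and 83.0 CPM per kb in WT PC. Genes numbered 9 to 13 made up 30.35 ± 6.0% of it (SD, n = 4), against 33 ± 0.47% in WT PC. Members that did not pass are given by value, since a test that misses its threshold does not show that they were equal. Simulated log2 changes of 2 were recovered in 57% of cases here, the lowest of the pairwise comparisons. Of 10 leukocyte markers 6 were higher, of 10 fibroblast markers 3 were higher and 1 lower, and of 10 smooth muscle markers 5 were lower. With the muscle markers in the model no member passed either. The part of the other markers was not tested.

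Hoxb9 was at 28.9, 12.3, 29.9 and 23.2 CPM in the tumours, within or below the WT PC range of 24.7 to 45 CPM. Hoxa9, a posterior gene also active in blood progenitors, was at 3.91, 4.12, 3.97 and 4.35 CPM in the tumours and at 6.57, 6.96 and 2.53 CPM in WT PC (log2 -0.37, adjusted p = 0.567). Hoxa7 was at 12.5, 7.82, 12.9 and 11.1 CPM and at 8.54, 12.4 and 3.81 CPM (0.44, adjusted p = 0.496). These genes overlapped between tumour and WT tissue. Tumour 2 had the lowest levels of Hoxb4 (17.5, 4.01, 11.3 and 12.1 CPM, against 11.3, 11.8 and 11.5 CPM in WT PC), Hoxb5 (15.3, 3.6, 5.86 and 7.92 CPM, against 5.89, 9.83 and 7.48 CPM) and Hoxb6 (48.6, 11.2, 31 and 29 CPM, against 36, 33.4 and 34.2 CPM). Hoxa5 was at 3.83, 2.37, 4.2 and 4.67 CPM (0.45, adjusted p = 0.487) and Hoxa6 at 1.08, 1.03, 0.46 and 0.65 CPM against 0.169, 0.518 and 0.143 CPM in WT PC (1.58 ± 0.61, adjusted p = 0.124). Without BA tumour 2, Hoxa3 alone was called (1.40, adjusted p = 0.0299), and without BA tumour 1, BA tumour 3 or WT PC 2 the single call was Hoxd4, Hoxc8 or Hoxd1. The widest difference, in Hoxc8, a thoracic patterning gene, was 2.73 ± 0.98 (adjusted p = 0.103, edgeR), from 0.473, 1.75, 0.115 and 1.54 CPM against 0.0339, 0.173 and 0.238 CPM.

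Apcfl/+ tumours, set against WT SI, showed opposite changes in neighbouring stretches of the Hoxa and Hoxb clusters. Of 18 members tested, 4 were higher (Hoxa5, Hoxa6, Hoxa7 and Hoxa9) and 3 lower (Hoxb4, Hoxb5 and Hoxb6). Hoxa9 passed the filter on low counts through the tumours alone and had to be higher. Hoxa6, with 16 reads over the WT SI libraries, also entered through the tumours alone. Its higher call was favoured by the filter, so no p is given for it. The 7 were 38.9% of those tested, below the 61.5% of all genes that passed (31.4% for higher calls, with 6461 genes higher and 6189 lower of 20567), and 8 members did not overlap, where 60.3% of all genes did not. The genes that rose lay side by side within chr6:52201754-52231089, and those that fell within chr11:96292476-96321638. The median log2 fold change over the members was -0.21 against 0.03.

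The fitted rise was larger with each step from Hoxa5 to Hoxa9. Hoxa5 was at 2.17, 2.63 and 2.93 CPM in WT SI and 11.7, 7.7, 13.1, 10.8 and 5.46 CPM in the tumours (1.81 ± 0.31, adjusted p = 0.0011). Hoxa6 was at 0.141, 0.202 and 0.439 CPM and at 1.65, 3.23, 2.04, 1.04 and 0.851 CPM (2.63 ± 0.59). In neither gene did tumour and WT SI libraries overlap. Hoxa7 was at 0.283, 0.456 and 0.78 CPM and at 13.5, 18.6, 14.8, 10.1 and 6.74 CPM (4.54 ± 0.47, adjusted p = 0.000107, edgeR). Hoxa9 was at 0.0471, 0.101 and 0.0975 CPM and at 12.3, 98.7, 11.7, 6.99 and 9.71 CPM (8.24 ± 1.55). The Hoxa9 value rested on 5 reads in the 3 WT SI libraries, none with more than 3, and DESeq2 gave it no adjusted p. Since Hoxa9 had to come out higher, no test result is given for it, and the size of its rise is uncertain. The highest Hoxa9 value was that of tumour 2. Without that library the log2 fold changes were 1.88, 2.28, 4.36 and 6.77 for the 4 genes. Hoxa5 and Hoxa7 then passed (adjusted p = 0.000624 and 3.73e-05, edgeR).

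All 7 calls held with each single library of either group left out. The 3 lower genes differed from WT SI by less than the Hoxa genes. Hoxb4 was at 4.1, 3.39 and 4.29 CPM in WT SI and 1.8, 1.57, 2.41, 2.88 and 2.23 CPM in the tumours (-0.95 ± 0.22, adjusted p = 0.00536). Hoxb5 was at 0.754, 1.32 and 0.732 CPM and at 0.55, 0.428, 0.278, 0.378 and 0.248 CPM (-1.42 ± 0.34, adjusted p = 0.00641). Hoxb6 was at 1.6, 1.72 and 1.12 CPM and at 0.999, 0.428, 0.788, 0.614 and 0.496 CPM (-1.26 ± 0.31, adjusted p = 0.00677). Each gene was lower in every tumour than in any WT SI library. Without tumour 2 the values were -0.86, -1.48 and -1.15 (adjusted p = 0.00382, 0.00602 and 0.00657, edgeR). The neighbours Hoxb3 (-0.74, adjusted p = 0.0635) and Hoxa4 (0.66, adjusted p = 0.0764) did not pass.

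**Figure D3:**
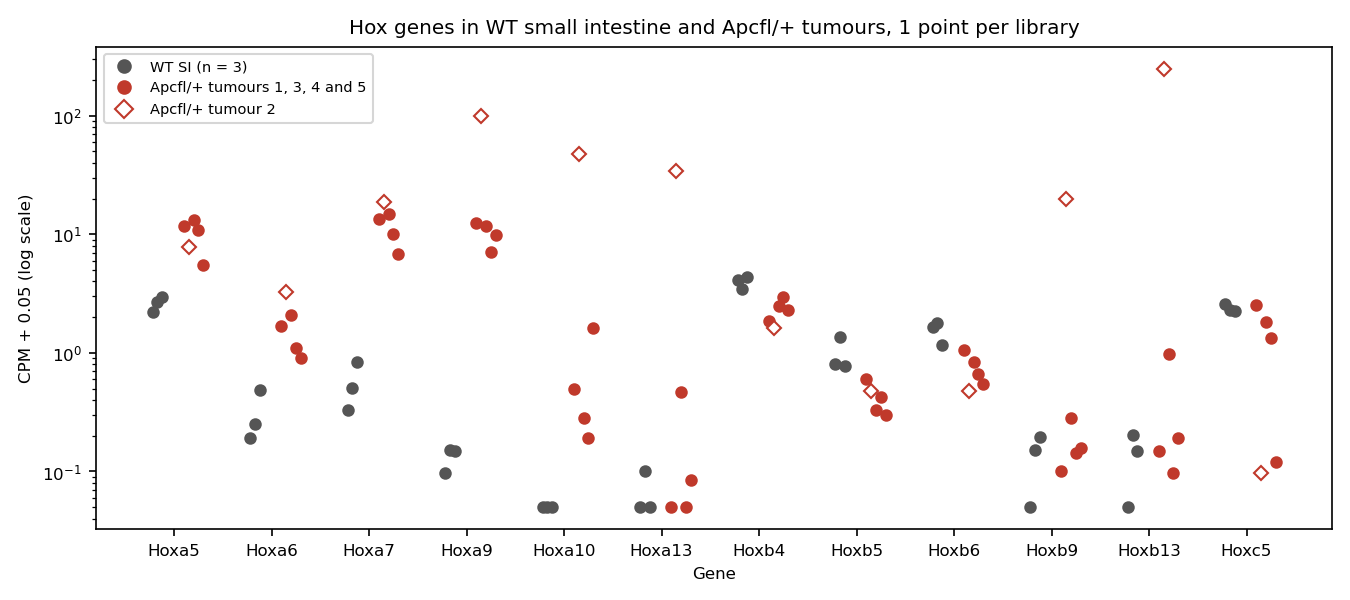
CPM plus 0.05 on a log axis for 12 Hox genes in the 3 WT SI libraries and the 5 Apcfl/+ tumours, with tumours 1, 3, 4 and 5 filled and tumour 2 as an open diamond. Hoxa5, Hoxa6, Hoxa7 and Hoxa9 sit above WT SI in every tumour, Hoxb4 to Hoxb6 below it, and Hoxa10, Hoxa13, Hoxb9 and Hoxb13 are high in tumour 2.

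The balance between clusters changed with these genes. Hoxa genes made up 32.1 ± 4.4% of summed Hox expression per length in WT SI (SD, n = 3) and 74.6 to 78.9% in tumours 1, 3, 4 and 5, where their level was 9.80 to 18.9 CPM per kb against 2.50 to 3.56. The Hoxb level in those tumours was 2.00 to 2.87 CPM per kb against 3.65 to 3.92 in WT SI. Tumour 2 differed from both, with a summed level of 188 CPM per kb against 12.4 to 24.7 in the other 4, and 89.9% of it from genes numbered 9 to 13 against 8.27 to 19.5%. It held 247 CPM of Hoxb13, which marks distal colon, against 0.0472 to 0.928 CPM in the others, 47.5 CPM of Hoxa10, 34.1 CPM of Hoxa13 and 19.7 CPM of Hoxb9. The WT PC libraries, by comparison, held at most 0.474 CPM of Hoxb13.

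**Figure D4:**
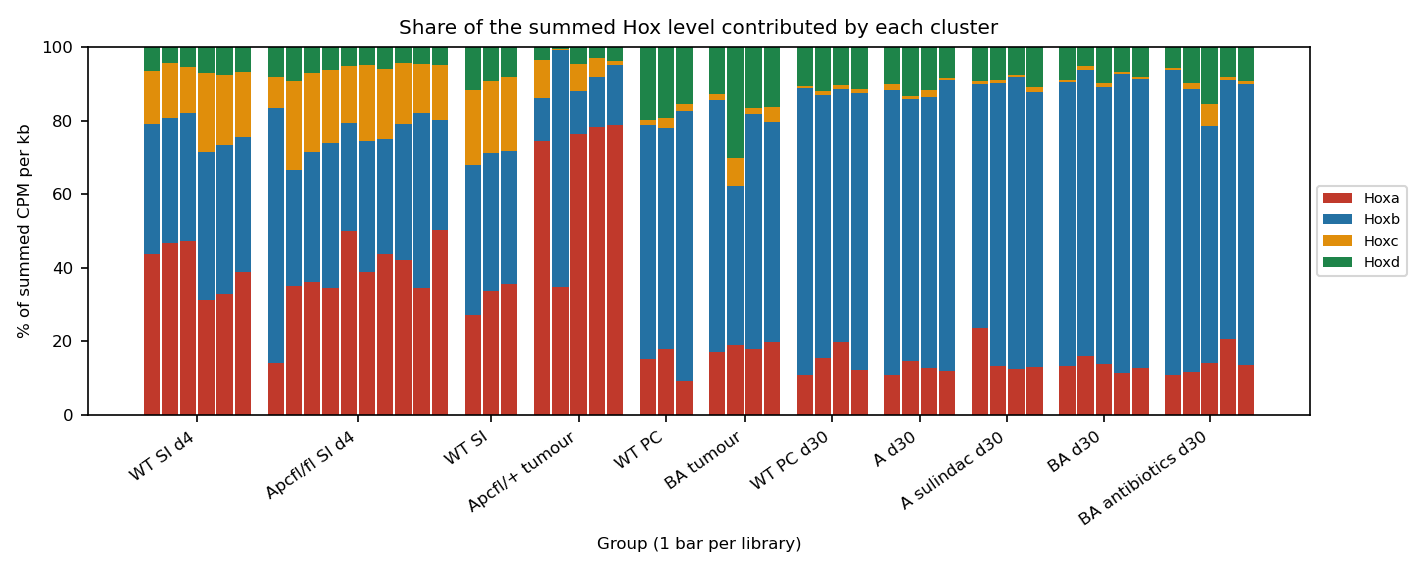
Share of summed Hox expression (CPM per kb of exon, in percent) that came from each cluster, 1 bar per library, ordered by group. Hoxb leads in proximal colon, and Hoxa leads in Apcfl/+ tumours 1, 3, 4 and 5.

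Other tissue components moved in the same tumours. Of 10 fibroblast markers 7 were higher and 1 lower than in WT SI, of 10 smooth muscle markers 5 were lower, and of 10 enteric neuron and glia markers 5 were lower and 1 higher. Summed smooth muscle markers were 546 to 1081 CPM in the tumours and 900 to 1640 CPM in WT SI, and fibroblast markers 3048 to 3757 CPM against 1265 to 1519 CPM. With the muscle markers in the model, the 4 Hoxa genes, Hoxb4 and Hoxb6 stayed called and Hoxb5 did not (-1.31, adjusted p = 0.0523). Over all genes, the calls went from 12650 to 9649. Cdx1 (-0.55) and Cdx2 (0.00) were not called. Hotairm1 (1.73) and Hoxaas3 (2.68), noncoding genes of the Hoxa cluster, were higher, and both were under 1 CPM in every WT SI library. Of the 10 tested retinoic acid genes, a pathway that acts on Hox transcription, 6 were higher and 1 was lower. Among the higher ones were the degrading enzyme Cyp26a1 (5.08), the receptor Rarb (3.04) and the synthesis enzyme Rdh10 (2.27). Cyp26a1 was under 1 CPM in every WT SI library, so the size of its rise is uncertain.

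The difference between the effects of BA and Apcfl/+ tumours was tested directly, each against its own WT tissue. Of 30 members 5 had a lower effect in BA tumours and 1 a higher one, 20% beside 39.7% of all genes. Hoxa5 (-1.33 on the log2 scale, adjusted p = 0.0358) and Hoxa7 (-4.06, adjusted p = 0.000405, edgeR) were lower. Hoxa9 (-8.59), Hoxa10 (-11.28) and Hoxa13 (-9.86) were called lower and Hoxc8 (6.36) higher, each with a group almost without reads. No p is given for these, and Hoxa9 rested on 5 reads in WT SI. Hoxa10 had 0 reads and Hoxa13 had 1 in the WT SI libraries, so that their values depend on the prior count of the fit and are no bounds. Without Apcfl/+ tumour 2, Hoxa5 (-1.51), Hoxa7 (-3.99), Hoxa9 (-7.21) and Hoxa10 (-7.30) remained and Hoxa13 did not (-4.04, adjusted p = 0.0835). Without WT SI 1 or 3, Hoxa5, Hoxa10 and Hoxa13 were lost. Hoxa5 was lost also without WT PC 1, and Hoxa13 without WT PC 1, BA tumour 1 or WT SI 2. The replicate block removed Hoxa10 and Hoxa13, and DESeq2 gave neither an adjusted p. Hoxc8 had 1 read in the 5 Apcfl/+ tumours, so that its value depends on the prior count too, and it had too few reads to be tested without BA tumour 1, 2 or 4. Without BA tumour 2, Hoxb4, Hoxb5 and Hoxb6 were gained, so the calls in Hoxb depended on that library. For Hoxa6, Hoxb4, Hoxb5 and Hoxb6, called in Apcfl/+ tumours and not in BA tumours, the difference itself did not pass with all libraries.

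At day 30, before tumours, BA colon had lower levels of colonic Hox genes than WT colon. Of 25 members tested, 15 were lower and Hoxa3 was higher, 64% beside 55.1% of all genes (29.3% for lower calls). The median log2 fold change was -0.53, against -0.03 for all genes, and 12 members did not overlap, where 45.4% of all genes did not. By cluster, 5 of 6 tested Hoxd genes, 6 of 8 Hoxb genes and 4 of 9 Hoxa genes were lower. Summed expression was 117 ± 3.2 CPM per kb in BA d30 (SD, n = 5) against 159 ± 7.4 in WT PC d30 (n = 4). The Hoxd genes fell to 9.16 ± 2.1 CPM per kb from 17.6 ± 1.1, and the Hoxb genes to 91.4 ± 3.9 from 117 ± 3.6. The share from genes numbered 9 to 13 was 28.7 ± 1.1% against 31.1 ± 1.2%. WT PC, the other WT colon group, summed to 87.7 ± 8.7 CPM per kb (n = 3), so BA d30 lay between the WT colon groups in summed expression.

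The largest fitted falls were in Hoxd3 and Hoxd4, whose values are uncertain, since 62.8% and 52.3% of their exonic bases are shared with another gene. Hoxd4 was at 4.9, 7.17, 5.21 and 5.78 CPM in WT PC d30 and 1.46, 1.51, 3.01, 1.15 and 2.84 CPM in BA d30 (-1.51 ± 0.27, adjusted p = 0.000718). Hoxd3 went from 0.527, 0.68, 0.853 and 0.588 CPM to 0.266, 0.241, 0.244, 0.0608 and 0.178 CPM (-1.71 ± 0.35), close to the floor of detection. With 15 reads over all BA d30 libraries, it passed the filter on low counts through WT PC d30 alone. Its lower call, counted above, was favoured by the filter, so no p is given. It was not tested without BA d30 library 5 or WT PC d30 library 2, 3 or 4. Hoxd9 went from 9.96, 12.6, 11.5 and 12.2 CPM to 7.5, 5.06, 7, 4.19 and 4.92 CPM (-0.99 ± 0.17, adjusted p = 0.000653). No BA d30 library reached a WT library in these 3 genes. Hoxd10 was at 7.74, 9.31, 8.76 and 9.31 CPM and at 5.11, 2.17, 6.34, 4.01 and 4.33 CPM (-0.98, adjusted p = 0.00422, edgeR), also without overlap.

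Falls in the Hoxb cluster were smaller and the replicates close. Hoxb5, a regulator of enteric neural crest, was at 31.3, 36.4, 33.9 and 35.9 CPM in WT PC d30 and 18.9, 20.3, 19.1, 20.1 and 17.7 CPM in BA d30 (-0.81 ± 0.08, adjusted p = 6.35e-06). Hoxb6 was at 78.5, 69.8, 72.6 and 80.7 CPM and at 53.7, 62.2, 54.8, 61.4 and 55.2 CPM (-0.36 ± 0.07, adjusted p = 0.00109). Hoxb9 was at 82.3, 64.1, 76.4 and 74.1 CPM and at 60.6, 58.5, 54.1, 63.9 and 61.4 CPM (-0.28 ± 0.08, adjusted p = 0.00806). The groups did not overlap in any of the 3. Hoxb7, between Hoxb6 and Hoxb8, was at 21.4, 20.4, 23.2, 23.8 and 20.9 CPM in BA d30 and 19.1, 24.6, 23.7 and 20.8 CPM in WT PC d30, with a log2 fold change of 0.02. In the Hoxa cluster Hoxa9 went from 5.48, 10.8, 27.6 and 7.01 CPM to 4.78, 9.65, 4.64, 2.31 and 4.15 CPM (-1.30 ± 0.48, adjusted p = 0.0393) and Hoxa10 from 9.06, 14.1, 19 and 12 CPM to 7.1, 10.2, 7.4, 4.98 and 3.5 CPM (-1.01 ± 0.29, adjusted p = 0.0114), both with overlap. The Hoxa9 call was lost without BA d30 library 1, 3, 4 or 5 or WT PC d30 library 2 or 3. Hoxa3 alone rose, from 5.53, 6.38, 8.43 and 6.42 CPM to 9.83, 9.47, 11, 9.72 and 9.6 CPM (0.59 ± 0.13, adjusted p = 0.00317, edgeR).

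**Figure D5:**
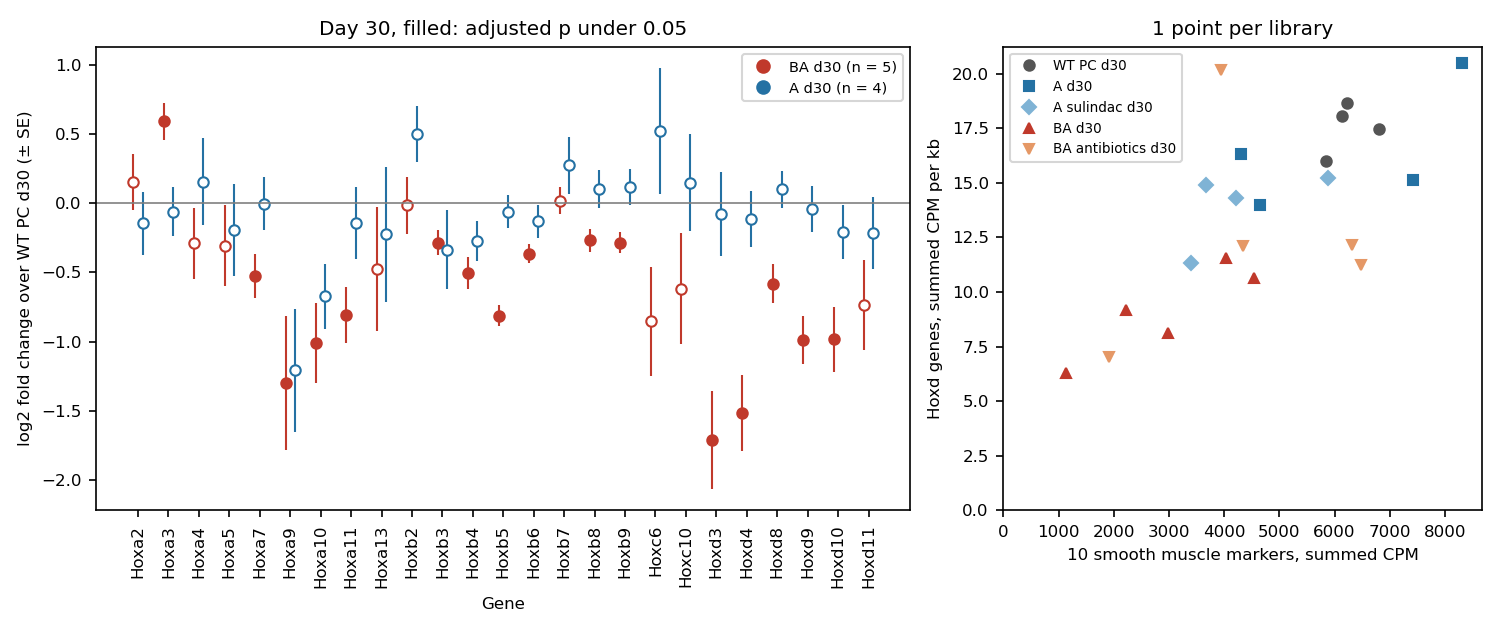
Left, log2 fold change over WT PC d30 (± SE) of the Hox genes tested in BA d30, for BA d30 and for A d30, filled where the test was passed. Right, summed Hoxd expression (CPM per kb) against summed smooth muscle marker expression (CPM) in the 5 day 30 groups, 1 point per library; BA d30 libraries lie at the lower end of Hoxd.

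Muscle and nerve markers moved with the falls. Of 10 smooth muscle markers 8 were lower in BA d30, with sums of 1131 to 4543 CPM against 5844 to 6800 CPM in WT PC d30, and 10 of 10 enteric neuron and glia markers and 7 of 10 fibroblast markers were lower too, while 9 of 10 epithelial markers were higher. With the muscle markers in the model, Hoxa3, Hoxb4, Hoxb5 and Hoxb6 stayed called and the other 12 members did not. Over all genes, the calls went from 9634 to 4585. The marker sums did not overlap between the groups, so this term cannot be separated from the group. Of the 9 cofactors 6 were lower, among them Meis1 (-1.44), Meis2 (-1.27) and Meis3 (-1.80), and 2 were higher, Pbx4 (1.24) the most. Cdx1 (0.08) and Cdx2 (-0.08) were not called. Of 7 noncoding cluster genes 4 were lower, Hoxd3os1 (-1.28) among them, and Hoxaas3 (1.27) was higher.

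The effect of BA in tumours was compared with its effect at day 30, and 3 of 30 members differed, 10% beside 16.3% of all genes (9.87% for higher calls): Hoxa6 (3.12, adjusted p = 0.0254), Hoxd3 (1.92, adjusted p = 0.0344) and Hoxb7 (-0.68, adjusted p = 0.0414, edgeR). None of these held without WT PC replicate 3 or without WT PC d30 replicate 3. Hoxb7 was kept only without BA tumour 3, WT PC 2 or WT PC d30 2, and was lost without any other single library. Hoxd3 was lost also without BA tumour 1, WT PC 2, BA d30 5 or WT PC d30 2 and with DESeq2. Hoxa6 was lost also without WT PC 1. With no filter on low counts Hoxb7 and Hoxd3 were lost, and with the replicate block all of them were. Without BA tumour 2, Hoxa7, Hoxb4 and Hoxb5 were gained.

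Loss of Alk5 without the Braf allele gave no call. In A d30 against WT PC d30, 0 of 27 members passed, beside 0.141% of all genes (0.0452% for lower calls). There were 3 with an unadjusted p under 0.05, and DESeq2 called none of them. The largest differences were in Hoxa9 (-1.21, adjusted p = 0.48), Hoxa10 (-0.67, adjusted p = 0.48) and Hoxb2 (0.50, adjusted p = 0.505). Summed expression was 153 ± 17 CPM per kb (SD, n = 4) and the Hoxd level 16.5 CPM per kb. Hoxb5 was at 33.8, 31.8, 27.6 and 36.5 CPM and Hoxb6 at 76.7, 59.6, 61.2 and 72.7 CPM, both overlapping WT PC d30.

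BA d30 differed from A d30 in 10 of 24 members, 9 lower and Hoxa3 higher, or 41.7% beside 45.3% of all genes. The median was -0.38 against -0.06, and 6 did not overlap, where 36% of all genes did not. Hoxd4 was at 4.37, 7.15, 4.32 and 5.19 CPM in A d30 (-1.36 ± 0.29, adjusted p = 0.00311), Hoxd9 at 12.8, 12.2, 10.6 and 8.54 CPM (-0.90 ± 0.20, adjusted p = 0.00342) and Hoxd10 at 6.65, 10.8, 6.45 and 6.13 CPM (-0.73, adjusted p = 0.0464), against the BA d30 values above. Hoxb5 again had the smallest adjusted p among the members (-0.71 ± 0.10, adjusted p = 0.000209). Hoxb8 was at 34, 32.4, 25.1 and 37.8 CPM in A d30 and 28.1, 23.5, 25.6, 24.6 and 23.1 CPM in BA d30 (-0.33, adjusted p = 0.0392), with overlap through A d30 replicate 3. Hoxb9 was at 83.5, 80.3, 63 and 89.3 CPM in A d30 (-0.36, adjusted p = 0.0145). Hoxc6 was at 2.67, 1.32, 2.07 and 0.733 CPM and at 0.398, 0.904, 0.976, 0.425 and 0.593 CPM (-1.32, adjusted p = 0.0203). Without A d30 replicates 1 and 3, 8 of the 10 stayed called, Hoxc6 and Hoxd10 did not, and Hoxa11 was gained. Hoxb8 and Hoxd10 were each lost without any of several single libraries, and Hoxb9 without A d30 library 2 or 4. Hoxc6 was lost without BA d30 library 4 or A d30 library 1 or 3. Smooth muscle markers were lower for 5 of 10, as were 7 of 9 tested enteric neuron and glia markers and 7 of 10 fibroblast markers, while 9 of 10 epithelial markers were higher. Of the 10 calls, 3 stayed with the smooth muscle markers in the model, where the calls over all genes went from 7761 to 3807.

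The treatments were set against their untreated genotypes. After sulindac 0 of 26 members passed, as did 0% of all genes, 2 had an unadjusted p under 0.05 and DESeq2 called no member. The median log2 fold change was -0.10, against 0.01 for all genes. No member had groups without overlap, as 1.97% of all genes had, and the summed expression was 152 ± 11 CPM per kb (SD, n = 4). Hoxa9 in the first sulindac library was 34.9 CPM against 5.01, 4.86 and 5.45 CPM in the other 3. After antibiotics 1 of 23 members passed in BA colon, 4.35% beside 13% of all genes (4.53% higher and 8.5% lower), with a median of 0.24 against 0.03. Hoxb8 went from 28.1, 23.5, 25.6, 24.6 and 23.1 CPM to 33.1, 30.51, 28.5, 31.4 and 31.4 CPM (0.30 ± 0.07, adjusted p = 0.017), with no overlap, where 10.8% of all genes did not overlap. Without antibiotics library 3 that call was kept. Hoxa13, lower after antibiotics (mean 0.227 CPM against 0.769), was gained without antibiotics library 1, 2, 3 or 5 or BA d30 library 4. It was gained also with no filter on low counts and with DESeq2. In library 3, where fibroblast markers were high, Hoxc8 stood at 4.21 CPM against 0.0633 to 0.475 CPM in the other 4 and Hoxc6 at 4.32 CPM against 0.253 to 1.15 CPM. Summed expression was 130 ± 12 CPM per kb, beside 117 ± 3.2 in BA d30.

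In Apcfl/fl small intestine at day 4, 8 of 17 members were lower than in WT SI d4 and none was higher, 47.1% beside 54.2% of all genes (26.7% for lower calls), with a median of -0.60 against 0. The groups overlapped in all but 1 member, where 15.8% of all genes did not overlap. Summed expression was 10.2 ± 2.7 CPM per kb (SD, n = 10) against 16.6 ± 3.8 (n = 6). Hoxb5 was at 0.971 to 3 CPM (median 2.06) against 2.63 to 5.56 CPM (median 3.69) in WT SI d4 (-1.16 ± 0.21, adjusted p = 0.000245). The overlap came from Apcfl/fl library 1 alone, from 2 reads, and the other 9 held at most 2.28 CPM. Hoxb4 was at 1.47 to 3.4 CPM (median 2.35) against 3.14 to 6.5 CPM (median 4.88; -0.99 ± 0.22, adjusted p = 0.00106). Hoxb6 was at 0.566 to 1.73 CPM (median 1.35) against a median of 2.2 (-0.83 ± 0.31, adjusted p = 0.0299).

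Hoxa4, a cervical patterning gene, was at 0 to 1.54 CPM (median 0.9) against 1.59 to 2.78 CPM (median 2.05; -1.12 ± 0.21, adjusted p = 0.000249, edgeR). It was the member without overlap. Its value of 0 came from replicate 1, the library of lowest depth. Hoxc4 was at 1.23 to 2.86 CPM (median 1.54) against 2.18 to 4.31 CPM (median 3.43; -0.90 ± 0.22, adjusted p = 0.00276). Hoxa5 was at 0 to 6.47 CPM (median 3.06) against 4.42 to 7.49 CPM (median 5.32; -0.76 ± 0.26, adjusted p = 0.0206). Hoxb3 (-0.73) and Hoxd8 (-0.78) completed the 8. Hoxb6 was lost without Apcfl/fl library 7 or WT SI d4 library 4, 5 or 6, and Hoxa5 without WT SI d4 library 6. Hoxb3 was lost without Apcfl/fl library 2, 3, 4 or 7, without WT SI d4 library 4 or 5, and with no filter on low counts. Hoxd8 was lost without WT SI d4 library 5 and with the replicate block. Without WT SI d4 libraries 1 to 3, Hoxa5 was lost, the other 7 stayed called and Hoxc5 and Hoxc6 were gained.

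Markers of several cell types were lower in the same tissue. The test was passed downward by 6 of 9 enteric neuron and glia markers, 5 of 5 endothelial, 5 of 10 leukocyte, 8 of 8 small intestinal, 2 of 10 fibroblast and 1 of 10 smooth muscle markers, and none of these was higher. Of 10 epithelial markers 3 were lower and 1 higher. With the smooth muscle markers in the model all 8 Hox calls were kept and Hoxc5 was gained. The part of the other markers in the Hox values was not tested. Of the 9 retinoic acid genes tested 5 were lower and none higher, Aldh1a1 (-3.09), a synthesis enzyme, the most, and of 9 cofactors 2 were higher and 4 lower. Of 12 chromatin regulators of Hox genes, such as Polycomb components, 7 were higher and 1 lower. In the WT colon set against WT SI 4 of these regulators were higher and 3 lower, and in BA tumours none passed.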

How the data were processed

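RNA was extracted from whole tissue or tumour (Qiagen RNeasy), made into TruSeq RNA v2 libraries and sequenced as paired reads of 36 bases. The submitters' processing notes name FastQC 0.11.8, Trim Galore 0.6.4, HISAT2 2.1.0, featureCounts 1.6.4 and GRCm38. The authors deposited raw read counts per gene and no normalised value. The strand setting of the counting is not given in the sources used here.

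Each comparison was fitted on its own groups with edgeR 4.0.16 in R 4.3.3 (filterByExpr, TMM scaling, quasi-likelihood test, Benjamini-Hochberg adjustment over all tested genes, threshold 0.05), and 3 differences between effects were fitted as interactions. Log2 fold changes carry standard errors derived from the F statistic. CPM of single libraries used TMM factors over all 53, and levels were divided by exon length in kb. Python 3.11.15 and pandas 2.3.3 were used. DESeq2 1.42.0, RLE scaling, no filter, a replicate block and each library left out were alternatives. A smooth muscle term (mean log2 CPM of 10 markers, prior count 2) and the joint removal of libraries were added after the data were seen. Members and lists were chosen with earlier results of these data known. Values were given for the called members with the largest changes or highest levels per length, and for members whose calls differed between regions or tumours. Further members were added by hand after the values were seen. On simulated counts, log2 changes of 2 in 200 genes were recovered in 57% for BA tumours and 76% for Apcfl/+ tumours (19188 and 20567 genes).

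Equal replicate numbers marked different mice, and correlations of same-numbered libraries ran from -0.442 to 0.227. No 2 libraries matched within sampling noise. The study gives its replicates as separate animals. Mira and Haglros were not matched by symbol.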

Additional observations from a re-analysis of the deposited data

Results flagged for a closer look

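In groups of 4 to 10 libraries, 14 of 79 pairs of a Hox gene and a group had a library far from the others by Dixon's criterion. Some of these pairs were added by hand after the values were seen, so the count cannot be set against a rate given by chance. Apcfl/+ tumour 2 accounted for 6 of them, with 98.7 CPM of Hoxa9, 47.5 of Hoxa10, 5.09 of Hoxa11, 34.1 of Hoxa13, 19.7 of Hoxb9 and 247 of Hoxb13. Its small intestinal markers were below those of the other 4 tumours and its colonic markers above them and far below those of WT PC, as given with the results, and the part of these in the values was not tested. In the BA antibiotics group, library 3 held 4.32 CPM of Hoxc6 and 4.21 CPM of Hoxc8, together with the highest fibroblast markers, and library 4 held 24.4 CPM of Hoxa9. Single libraries also stood out for Hoxa9 after sulindac (34.9 CPM in library 1), for Hoxa6 in WT PC d30 (2.32 CPM in library 3) and for Hoxd10 in A d30 (10.8 CPM in library 2). Hoxd10 in WT SI d4 library 5 was 0.0591 CPM, from 1 read, with none in the other 5. Hoxa4 was 0 in Apcfl/fl library 1, the shallowest of all.

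Effects differed between settings by a direct test in 11 cases. Against their own WT tissue, the BA and Apcfl/+ tumour effects differed on the log2 scale by -1.33 for Hoxa5, -4.06 for Hoxa7, -8.59 for Hoxa9, -11.28 for Hoxa10, -9.86 for Hoxa13 and 6.36 for Hoxc8. Those of Hoxa10, Hoxa13 and Hoxc8 rest on a group with 0 or 1 read in all, depend on the prior count and are no bounds. The BA effect in tumours less that at day 30 was 3.12 for Hoxa6, -0.68 for Hoxb7 and 1.92 for Hoxd3. The colon effect in the first WT set less that in the second was -0.99 for Hoxa2 and 1.80 for Hoxa4.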

How the results depend on the processing

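With RLE scaling the count of called Hox genes stayed within 1.5 times the original in all 10 comparisons and all 3 differences of effects. Among the alternatives, the smooth muscle term moved the counts most. It left 9 called genes in WT PC d30 against WT SI d4, 4 in BA d30 against WT PC d30, 3 in BA d30 against A d30 and 0 after antibiotics. Calls over all genes fell too where they are given with the results. The term also turned Hoxa6 in WT PC d30 against WT SI d4 to -1.32 (adjusted p = 0.672, edgeR). Without the filter, BA tumours gave 3 calls, antibiotics 2 and the difference between tumour and day 30 effects 1. DESeq2 gave 3, 2 and, for the difference between regions, 5. The cause was not tested.

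The replicate numbers pair no samples, since equal numbers are different mice. A replicate block gave 2 calls after antibiotics, 0 for the difference between tumour and day 30 effects and 6 for that between regions. It removed Hoxb5 (adjusted p = 0.0649) and Hoxb6 (adjusted p = 0.0829, edgeR) from the Apcfl/+ tumour calls and moved no other count past 1.5 times.

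Leaving out 1 library at a time gave 19 to 23 calls for WT PC against WT SI, 24 for the second WT set, 0 to 1 for BA tumours, 7 to 8 for Apcfl/+ tumours, 13 to 17 for BA d30, 7 to 10 for BA d30 against A d30, 1 to 2 after antibiotics and 5 to 9 for Apcfl/fl. The differences of effects gave 3 to 8 between tumours, 0 to 5 between tumour and day 30 and 1 to 4 between regions. The library that lowered the Apcfl/fl count to 5 was WT SI d4 replicate 5, and that for the tumours was WT SI replicate 1 (3 calls).

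Over exon bases shared with no other gene, the summed level was 124.1 CPM per kb in BA d30, 169.9 in WT PC d30 and 10.9 in WT SI, and genes numbered 9 to 13 made up 31.8% in WT PC and 29.5% after sulindac. Scaled to library totals the sum was 108.8 in BA d30 and 10.7 in WT SI. Depth limits genes near 0.142 to 0.184 CPM, the level of 3 reads.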
